A study of Mus musculus with 3 samples.

Results

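Klf2, Klf3, Klf6, Klf13, Btg1, Btg2, Foxo1, Foxp1, Txnip and Tsc22d3 are 10 genes tied to the resting state of T cells, and they were taken by name from the 18029 genes of the count table. All 10 were in the table, and all 10 passed the filter on low counts in CD4+ and in CD8+ T cells. The counts came from a mouse model of graft-versus-host disease (GVHD), in which T cells of the graft attack the recipient. Irradiated B6D2F1 recipients were given B6 bone marrow and B6 T cells, plus 1000 TEa T cells each, which carry a transgenic TCR against a recipient antigen on a Rag1-/- background. From day 0 to day 6 they were injected i.p. once a day with saline or with a lower (5 mg/kg) or higher (50 mg/kg) dose of cyclosporine A (CSA), and spleens were taken on day 7. CSA inhibits calcineurin, the phosphatase that lets NFAT factors enter the nucleus after TCR ligation.

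Each of the 3 groups (saline, CSA 5 mg/kg, CSA 50 mg/kg) had 6 mice, and the spleens of 2 mice made 1 hashtagged pool. Thus n = 3 pools per group, except in clusters where fewer pools had enough cells. CD4+ and CD8+ cells were sorted with CD4, CD8, CD90.2 and the viability dye 7-AAD, mixed 1:1 and run as 1 capture per group. Capture and treatment therefore cannot be told apart, and p-values measure the spread between pools of 1 capture. B6 and B6D2F1 T cells both carry CD90.2, so T cells that a recipient still had cannot be told apart from donor cells by these markers. The age of these recipients was not given in the sources used here. TEa cells (280 of 21204) were left out unless stated.

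A quiescent T cell is small, divides rarely and keeps its mRNA content and nutrient uptake low. FOXO1, a factor that AKT expels from the nucleus when the TCR is engaged, drives Klf2 and Il7r, and KLF2 in turn maintains S1pr1, which keeps a T cell recirculating. BTG1 and BTG2 bring the CCR4-NOT deadenylase to mRNA, FOXP1 restrains activation of naive cells, TXNIP binds thioredoxin and limits glucose uptake, and TSC22D3 (GILZ) is a classical glucocorticoid-induced protein.

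The sums of a pool held 3994968 to 7592334 UMIs from 875 to 1479 CD4+ cells and 4392100 to 11454636 UMIs from 692 to 1615 CD8+ cells. The median cell had 3097, 4396 and 5979.5 UMIs in the CD4+ cells of the saline, 5 mg/kg and 50 mg/kg groups, and 4108, 6121.5 and 7183 UMIs in the CD8+ cells, so depth rose with dose. In all, 218 cell barcodes occurred in more than 1 capture. Cd8a was at 0 in the CD4+ sums and Cd4 at 0 in the CD8+ sums, whereas Cd8b1 was counted in the CD4+ sums. Both lineages shared a capture, so each cell had to be assigned to a lineage afterwards. If these counts were used for that, the zeros were fixed in advance, and they are therefore no measure of purity.

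In GRCm38 with the GENCODE vM21 genes, Klf2 lies on chromosome 8 (72319033 to 72321656, plus strand), Klf3 on 5 (64803388 to 64832901, plus), Klf6 on 13 (5861482 to 5870394, plus) and Klf13 on 7 (63886351 to 63938915, minus). Btg1 lies on chromosome 10 (96617006 to 96622809, plus), Btg2 on 1 (134075170 to 134079120, minus), Foxo1 on 3 (52268336 to 52353221, plus) and Foxp1 on 6 (98925338 to 99522721, minus). Txnip shares chromosome 3 with Foxo1 (96557957 to 96561883, plus), and Tsc22d3 is X-linked (140539528 to 140600659, minus). All 10 are protein-coding, and counts are over the whole gene.

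The promoters of 3 members are shown, Klf2 because it is a known target of MEF2 and FOXO factors and rose at 50 mg/kg in both lineages, and Btg1 and Txnip because theirs were the windows among the members that hold a FOXO match. Each is the 250 bases before the RefSeq start in GRCm38.p6, read 5′ to 3′, and capitals mark a match of the MEF2 motif in Klf2 (chr8:72318812-72319061, plus strand, starting 118 bases before the start) and of the FOXO motif GTAAACA or its complement in Btg1 (chr10:96616751-96617000, plus strand, 204 bases before) and in Txnip (chr3:96557707-96557956, plus strand, 121 bases before).
Klf2: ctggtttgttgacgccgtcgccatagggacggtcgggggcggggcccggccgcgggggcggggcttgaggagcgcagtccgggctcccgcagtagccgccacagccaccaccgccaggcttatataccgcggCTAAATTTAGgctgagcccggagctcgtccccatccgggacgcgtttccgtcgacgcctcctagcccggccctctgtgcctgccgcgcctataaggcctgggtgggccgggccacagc
Btg1: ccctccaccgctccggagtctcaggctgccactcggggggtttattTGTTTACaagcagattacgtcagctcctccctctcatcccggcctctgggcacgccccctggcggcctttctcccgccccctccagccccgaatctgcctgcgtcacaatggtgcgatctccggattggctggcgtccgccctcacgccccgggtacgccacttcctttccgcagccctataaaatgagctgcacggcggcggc
Txnip: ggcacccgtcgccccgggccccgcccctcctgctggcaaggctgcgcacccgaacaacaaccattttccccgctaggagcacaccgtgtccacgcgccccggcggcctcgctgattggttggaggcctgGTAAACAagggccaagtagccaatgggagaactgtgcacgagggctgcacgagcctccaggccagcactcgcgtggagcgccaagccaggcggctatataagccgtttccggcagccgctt

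Over both strands, the FOXO motif was in 3.17% of 32851 RefSeq promoter windows of this length and the MEF2 motif in 2.92%. Among the 10 members, only Btg1 and Txnip held the FOXO motif, only Klf2 the MEF2 motif, only Btg2 the cAMP response element TGACGTCA (1.55% of all windows) and only Klf6 the E-box CACGTG (6.02%). The CCAAT box was in 7 members (33.8% of all windows), and the GC box GGGCGG, a site of the kind that SP and KLF proteins bind, was in all 10 (32.7%). The shorter KLF-type letters CACCC were in 6 members (52.0%). The matches are letters in a sequence and no measure of binding.

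Levels below are CPM of the summed UMIs of a pool, scaled by TMM (trimmed mean of M-values, which centres the typical gene at no change). Differences are log2 fold changes with their SE from edgeR's quasi-likelihood test, called at a Benjamini-Hochberg adjusted p under 0.05 over all genes tested (10568 in CD4+, 10841 in CD8+). Under library size alone, the median gene fell by 0.37 at 5 mg/kg and by 0.45 at 50 mg/kg in CD4+ cells, and by 0.43 and 0.53 in CD8+ cells, on the log2 scale. A member that rose by clearly less than that under TMM was thus lower in plain CPM, and both scales are given where the direction depends on them. In sums over a pool, fewer cells of a type and less RNA per cell cannot be told apart. Both doses were compared with the same saline pools.

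Marker lists of other cell types and states moved with treatment too, and their summed levels are CPM without TMM. In the 50 mg/kg pools against saline, 8 erythroid marker genes summed to 28.0 to 37.6 against 3.39 to 15.8 CPM in CD4+ cells and 25.8 to 49.4 against 4.80 to 19.0 CPM in CD8+ cells. The sum of 10 cycling genes was 1986 to 2190 against 2490 to 2714 CPM in CD4+ cells, although under TMM 7 of them were higher and 2 lower (median log2 change 0.49) and the share of cells in cycling clusters went from 19.6% to 23.9% in saline to 30.8% to 34.5%. In CD8+ cells it was 1900 to 2265 against 3905 to 4126 CPM, with 4 genes higher and 5 lower under TMM (median -0.03). The sum of 19 dissociation and immediate-early genes was 5089 to 5559 against 5279 to 5689 CPM in CD4+ and 4065 to 4721 against 4667 to 5134 CPM in CD8+ cells, whereas under TMM 9 of the 16 tested were higher and 3 lower in CD4+ (median 0.31) and 11 higher and 4 lower in CD8+ cells (median 0.38). T cell genes summed to 5513 to 5566 against 5462 to 5601 CPM in CD4+ and 8265 to 8867 against 6020 to 6110 CPM in CD8+ cells, with 8 of the 8 tested higher under TMM in the latter (median 0.78). B cell genes lay below the saline range in CD8+ cells (39.1 to 65.0 against 79.8 to 103 CPM) and not in CD4+ cells (107 to 123 against 88.9 to 123 CPM), and over all groups myeloid genes lay between 268 and 369 CPM and NK cell genes between 23.9 and 82.9 CPM. The part of these lists in the changes of the members was not tested. Values or calls without the cycling clusters are given where they change a call or a direction. For some members they are also given where a called value moved by over 1.5 times.

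Klf2, Btg1 and Tsc22d3, 3 of the 10 genes, were higher and 4 were lower than saline at 5 mg/kg in each lineage. The 4 lower genes were Klf3, Foxo1, Foxp1 and Txnip in CD4+ cells and Klf6, Foxo1, Foxp1 and Txnip in CD8+ cells. In CD4+ cells DESeq2 called only 2 of them lower, Foxp1 and Txnip. Of all genes tested, 26.1% were higher and 25.6% lower in CD4+ cells, and 29.9% higher and 30.3% lower in CD8+ cells, so the counts of 3 and 4 lay near the background of these comparisons. At 50 mg/kg, 6 members were higher in CD4+ cells, where 34.7% of all genes were higher and 35.8% lower. In CD8+ cells 9 were higher, where 37.1% of all genes were higher and 36.9% lower. No member was called lower at 50 mg/kg in either lineage by edgeR or by DESeq2 on the TMM or size factor scale, but under library size alone 6 were lower and 2 higher in CD4+ cells, and 3 lower and 4 higher in CD8+ cells.

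Between the doses, 8 members were higher at 50 than at 5 mg/kg in CD4+ cells (19.9% of all genes higher, 21.3% lower), 1 was lower and Klf13 did not pass the test. In CD8+ cells all 10 were higher (2167 of 10841 genes, 20%, higher and 21.0% lower). This comparison depended least on the scale, since library size moved the median gene by only -0.09 in CD4+ and -0.11 in CD8+ cells. Under it, 8 members were still higher in CD4+ cells and 7 in CD8+ cells, all but Klf6, Klf13 and Tsc22d3.

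**Figure D1:**
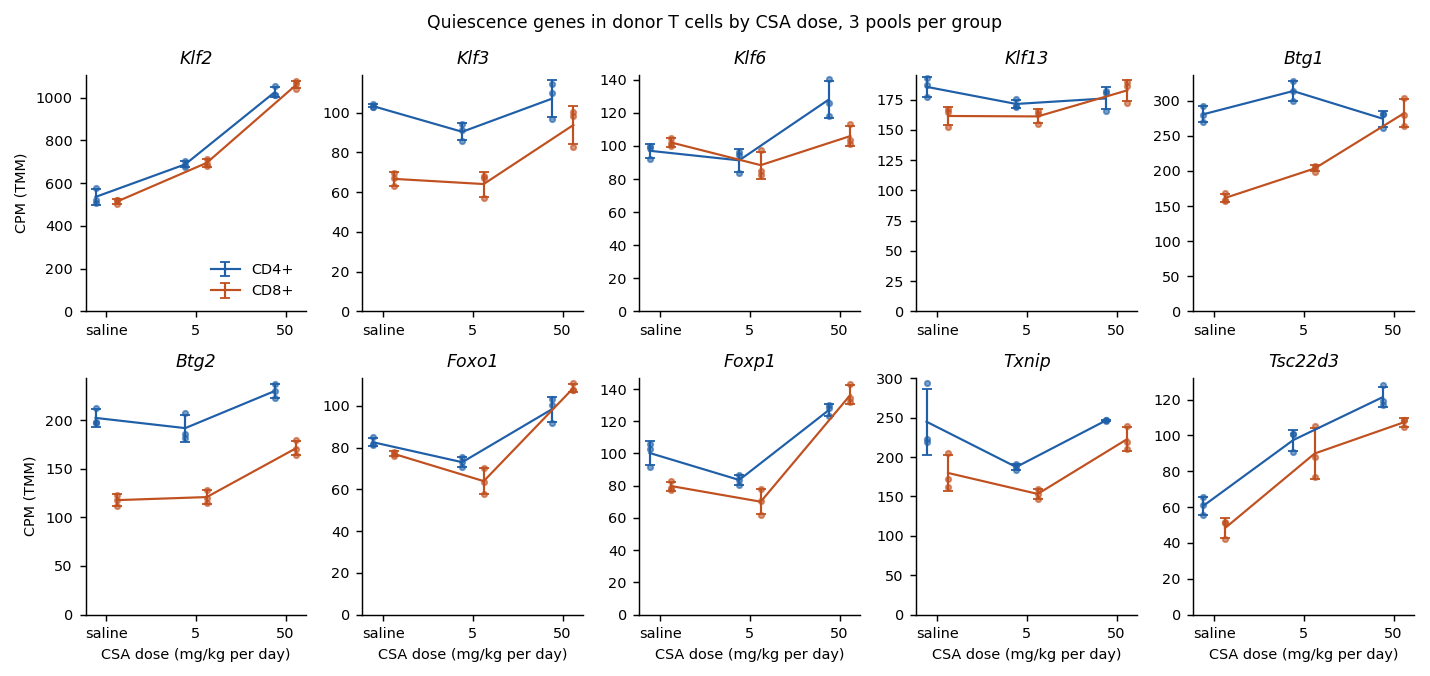
Level of each member (CPM after TMM scaling, y axis) in the 3 pools of each group (saline, CSA 5 mg/kg, CSA 50 mg/kg, x axis) in CD4+ and CD8+ cells; points are pools, and lines with bars the mean and SD. Klf2 climbs in both lineages, from 506 to 576 CPM in saline to 1010 to 1053 CPM at 50 mg/kg in CD4+ cells and from 503 to 519 to 1041 to 1077 CPM in CD8+ cells, while Foxo1, Foxp1 and Txnip dip at 5 mg/kg; under library size alone the change at 50 mg/kg was -0.19 and -0.04 for Foxo1 and -0.43 and -0.22 for Txnip in CD4+ and CD8+ cells.

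Klf2, the zinc finger factor that keeps T cells in circulation, rose at each dose under TMM. In CD4+ cells it was at 576, 506 and 522 CPM in the saline pools, 686, 675 and 702 CPM at 5 mg/kg and 1014, 1053 and 1010 CPM at 50 mg/kg. The CD8+ pools held 519, 519 and 503 CPM, then 714, 681 and 689 CPM, then 1077, 1041 and 1062 CPM. The 3 groups did not overlap in either lineage. The log2 change was 0.36 ± 0.04 (SE, edgeR adjusted p = 3.38e-07) at 5 mg/kg and 0.94 ± 0.04 (edgeR adjusted p = 2.27e-14) at 50 mg/kg in CD4+ cells, a 1.92-fold rise. In CD8+ cells it was 0.43 ± 0.04 and 1.05 ± 0.04 (edgeR adjusted p = 1.77e-14 at the higher dose), a 2.06-fold rise. Under library size alone the rise at 50 mg/kg remained called at 0.50 ± 0.04 and 0.52 ± 0.03, while that at 5 mg/kg was 0.01 in both lineages and was not called.

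Klf3, Klf6 and Klf13, relatives of Klf2 that share its zinc finger domain, did not follow it. Klf6 was at 100, 92.3 and 98.9 CPM in the saline CD4+ pools, 83.4, 94.2 and 96.2 CPM at 5 mg/kg and 140, 126 and 118 CPM at 50 mg/kg. Only the 50 mg/kg pools stood apart from saline. The change there was 0.40 ± 0.07 (edgeR adjusted p = 1.38e-05) under TMM but -0.04 ± 0.06 under library size alone. In CD8+ cells Klf6 was at 105, 102 and 99.7 CPM in saline, 82.3, 85.0 and 97.8 CPM at 5 mg/kg and 113, 101 and 104 CPM at 50 mg/kg. It fell by 0.19 ± 0.06 at 5 mg/kg (edgeR adjusted p = 0.0145), a call lost without saline pool 1 (-0.18, edgeR adjusted p = 0.0549), 5 mg/kg pool 1 (-0.15) or 5 mg/kg pool 2 (-0.16), and did not pass the test at 50 mg/kg (0.05 ± 0.06, 95% interval -0.07 to 0.17), though without the cycling clusters it was called there (0.17 ± 0.07, edgeR adjusted p = 0.031).

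Klf3 showed the opposite split between lineages. In CD4+ cells it was at 103, 103 and 104 CPM in saline, 94.2, 85.6 and 91.3 CPM at 5 mg/kg and 115, 96.8 and 110 CPM at 50 mg/kg. In CD8+ cells it was at 67.2, 69.9 and 63.0 CPM, then 68.3, 67.1 and 56.8 CPM, then 100, 98.4 and 82.8 CPM. All 3 CD8+ pools at 50 mg/kg exceeded every saline pool, whereas the CD4+ pools overlapped. The log2 change at 50 mg/kg was 0.49 ± 0.08 in CD8+ cells (edgeR adjusted p = 1.48e-05) and 0.05 ± 0.06 in CD4+ cells (edgeR adjusted p = 0.468) under TMM, against -0.04 ± 0.08 and -0.39 ± 0.06 under library size alone. Without the cycling clusters the CD8+ rise was 0.27 ± 0.07 and still called, and Klf3 was called lower in CD8+ cells at 5 mg/kg (-0.24 ± 0.08, edgeR adjusted p = 0.0157, against -0.07 with them). The fall of Klf3 in CD4+ cells at 5 mg/kg (-0.19 ± 0.06, edgeR adjusted p = 0.0147) was lost without 5 mg/kg pool 2 (-0.16, edgeR adjusted p = 0.0841). With DESeq2 it was just not called (-0.19, DESeq2 adjusted p = 0.0505). Klf13 was called only in CD8+ cells at 50 mg/kg among the comparisons with saline, where its pools held 173, 189 and 186 CPM against 167, 153 and 164 CPM in saline. That change was 0.18 ± 0.05 (edgeR adjusted p = 0.00325) under TMM and -0.35 ± 0.05 under library size alone. In CD4+ cells at 5 mg/kg Klf13 was at -0.12 ± 0.05 (edgeR adjusted p = 0.062), a value close to the threshold that was called lower in 7 of 17 alternatives, among them the fits without the cycling clusters (-0.16), with all genes kept (-0.13), with TEa cells (-0.12), without saline pool 2 (-0.15) or 50 mg/kg pool 1 (-0.11) and under library size alone (-0.47). Between the doses it was called higher in CD4+ cells only without the cycling clusters (0.20, against 0.04 with them).

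Btg1, an antiproliferative protein that binds the deadenylase, parted CD4+ from CD8+ cells. In CD8+ cells it was at 157, 159 and 168 CPM in saline, 207, 199 and 204 CPM at 5 mg/kg and 279, 304 and 264 CPM at 50 mg/kg, with no overlap between the groups. The CD4+ pools held 292, 270 and 280 CPM in saline, 313, 299 and 329 CPM at 5 mg/kg and 261, 280 and 281 CPM at 50 mg/kg. The CD4+ pools at 50 mg/kg thus lay back among the saline pools. The log2 change at 50 mg/kg was 0.80 ± 0.05 in CD8+ cells (edgeR adjusted p = 8.89e-11) and 0.28 ± 0.05 under library size alone, both called. In CD4+ cells it was -0.03 ± 0.05 (edgeR adjusted p = 0.562), and -0.47 ± 0.04 under library size alone. Without the cycling clusters the CD4+ value turned to a called rise (0.16 ± 0.05, edgeR adjusted p = 0.00412), and the fall between the doses in CD4+ cells (-0.19 ± 0.05) was gone (0.0023). At 5 mg/kg the rise of 0.16 ± 0.05 in CD4+ and 0.33 ± 0.05 in CD8+ cells (edgeR adjusted p = 0.0056 and 2.79e-05) turned to -0.19 and -0.09 under library size alone.

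Btg2, its paralog and a p53 target, rose at the higher dose in both lineages. The CD4+ pools held 198, 197 and 213 CPM in saline, 208, 182 and 186 CPM at 5 mg/kg and 230, 223 and 237 CPM at 50 mg/kg. The CD8+ pools held 118, 123 and 112 CPM, then 128, 114 and 120 CPM, then 164, 179 and 170 CPM. The 50 mg/kg pools lay above every saline pool, whereas the 5 mg/kg pools overlapped saline (-0.08 ± 0.05 in CD4+ cells, called at -0.13 without 5 mg/kg pool 1). The change at 50 mg/kg was 0.18 ± 0.05 in CD4+ cells (edgeR adjusted p = 0.00267) and 0.54 ± 0.05 in CD8+ cells (edgeR adjusted p = 4.01e-08) under TMM, against -0.25 ± 0.05 and 0.01 ± 0.05 under library size alone. Without the cycling clusters it was 0.31 ± 0.06 and 0.34 ± 0.06, both called. Between the doses the rise of Btg2 in CD4+ cells was 0.27 ± 0.05, and 0.45 ± 0.06 without those clusters, both called.

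Foxo1 and Foxp1, forkhead factors that hold naive T cells at rest, fell at 5 mg/kg and rose at 50 mg/kg under TMM. Foxo1 was at 81.3, 81.7 and 84.9 CPM in the saline CD4+ pools, 75.4, 73.0 and 70.6 CPM at 5 mg/kg and 91.6, 103 and 100 CPM at 50 mg/kg. The CD8+ values were 75.7, 77.0 and 78.1 CPM, then 70.3, 57.9 and 63.6 CPM, then 111, 107 and 107 CPM. The 3 groups did not overlap in either lineage. The change was -0.18 ± 0.06 at 5 mg/kg and 0.25 ± 0.06 at 50 mg/kg in CD4+ cells (edgeR adjusted p = 0.0191 and 0.00065), and -0.28 ± 0.06 and 0.50 ± 0.06 in CD8+ cells (edgeR adjusted p = 0.000846 and 2.55e-07). Under library size alone the changes at 50 mg/kg were -0.19 ± 0.06 and -0.04 ± 0.06. The CD8+ call at 5 mg/kg was lost without the cycling clusters (-0.20 ± 0.09, edgeR adjusted p = 0.0766). The CD4+ call at 5 mg/kg was lost without saline pool 3 (-0.16, edgeR adjusted p = 0.0708) or without 5 mg/kg pool 3 (-0.16, edgeR adjusted p = 0.0921). It was also lost with DESeq2 (-0.18, DESeq2 adjusted p = 0.0829).

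Foxp1 was at 103, 106 and 91.9 CPM in the saline CD4+ pools, 80.6, 86.3 and 83.8 CPM at 5 mg/kg and 123, 128 and 130 CPM at 50 mg/kg. The CD8+ pools held 82.9, 78.8 and 77.6 CPM, then 70.3, 77.8 and 62.1 CPM, then 132, 143 and 134 CPM. The pools at 50 mg/kg were the highest in both lineages, and 1 CD8+ pool at 5 mg/kg reached the lowest saline pool. Foxp1 rose by 0.34 ± 0.06 in CD4+ cells (edgeR adjusted p = 1.84e-05) and by 0.77 ± 0.06 in CD8+ cells (edgeR adjusted p = 3.53e-09) at 50 mg/kg under TMM, against -0.10 ± 0.06 and 0.24 ± 0.06 under library size alone, where the CD8+ call remained. Its fall at 5 mg/kg was -0.26 ± 0.06 in CD4+ cells (edgeR adjusted p = 0.00145) and -0.20 ± 0.07 in CD8+ cells (edgeR adjusted p = 0.0225), the latter lost without saline pool 1 (-0.17) or 5 mg/kg pool 3 (-0.11) and at -0.37 ± 0.08 without the cycling clusters. From 5 to 50 mg/kg it rose by 0.60 ± 0.06 in CD4+ and by 0.97 ± 0.07 in CD8+ cells (edgeR adjusted p = 7.32e-08 and 4.71e-09).

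Txnip, the thioredoxin-binding arrestin, was low at 5 mg/kg in both lineages. The CD4+ pools held 222, 219 and 294 CPM in saline, 191, 188 and 184 CPM at 5 mg/kg and 245, 247 and 247 CPM at 50 mg/kg. The CD8+ pools held 162, 172 and 206 CPM, then 159, 153 and 147 CPM, then 219, 240 and 210 CPM. Saline pool 3 was the highest saline pool in both lineages, and the 5 mg/kg pools lay below every saline pool. Txnip fell by 0.39 ± 0.08 in CD4+ cells (edgeR adjusted p = 0.000235) and by 0.24 ± 0.07 in CD8+ cells (edgeR adjusted p = 0.00995) at 5 mg/kg, and the CD8+ call was lost without saline pool 3 (-0.13, edgeR adjusted p = 0.0801). At 50 mg/kg it rose by 0.31 ± 0.07 in CD8+ cells (edgeR adjusted p = 0.000679) but was at -0.22 ± 0.07 under library size alone, and the call was lost without the cycling clusters (0.08 ± 0.07, edgeR adjusted p = 0.31). The CD8+ fall at 5 mg/kg was -0.39 ± 0.08 without those clusters. In CD4+ cells it was at 0.01 ± 0.07 (edgeR adjusted p = 0.954), and 0.16 and called without saline pool 3 (edgeR adjusted p = 0.00536), against -0.43 ± 0.07 under library size alone.

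Tsc22d3, which binds and restrains AP-1 and NF-kB, was the other member besides Klf2 that rose at 50 mg/kg in both lineages under either scale. The CD4+ pools held 61.4, 55.5 and 65.5 CPM in saline, 101, 90.6 and 101 CPM at 5 mg/kg and 119, 117 and 128 CPM at 50 mg/kg. The CD8+ pools held 42.1, 51.3 and 51.5 CPM, then 105, 87.8 and 77.0 CPM, then 109, 109 and 105 CPM. Every treated pool exceeded every saline pool, and the highest CD8+ pool at 5 mg/kg was level with the lowest at 50 mg/kg. The change at 50 mg/kg was 1.00 ± 0.07 in CD4+ cells (edgeR adjusted p = 1.84e-11) and 1.15 ± 0.09 in CD8+ cells (edgeR adjusted p = 1.41e-09), and 0.56 ± 0.07 and 0.62 ± 0.09 under library size alone. The lower dose already gave 0.68 ± 0.07 and 0.87 ± 0.09, and 0.32 and 0.44 under library size alone, all called. Between the doses the CD8+ rise of 0.28 ± 0.09 was lost without 5 mg/kg pool 3 (0.17, edgeR adjusted p = 0.158) or 50 mg/kg pool 1 (0.27), without the cycling clusters (0.11, edgeR adjusted p = 0.464) and under library size alone (0.17, edgeR adjusted p = 0.12).

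**Figure D2:**
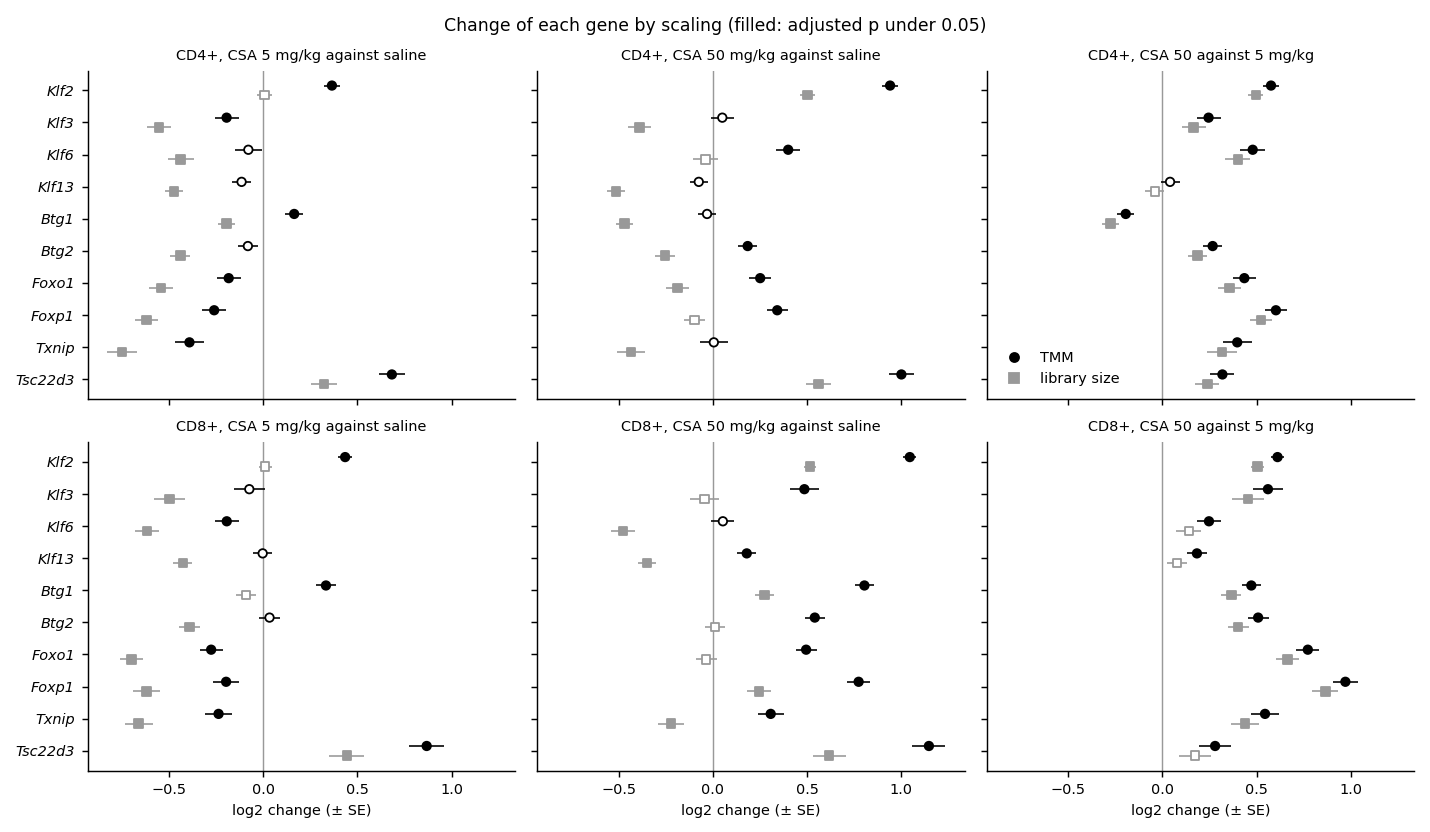
Log2 fold change (x axis, bars ± SE) of each member at 5 and 50 mg/kg against saline and between the doses, in CD4+ and CD8+ cells, under TMM (circles) and library size alone (squares), filled where called. Klf2 at 50 mg/kg (0.94 and 1.05 under TMM, 0.50 and 0.52 under library size) and Tsc22d3 (1.00 and 1.15, then 0.56 and 0.62) stay right of 0 on both scales, while Klf6 in CD4+ cells goes from 0.40 to -0.04 and Txnip in CD8+ cells from 0.31 to -0.22.

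CD4+ and CD8+ cells of a pool came from the same mice and the same capture, so the lineages were compared with pool as a block. In saline, 8 members differed (40.4% of all genes differed), 7 of them lower in CD8+ cells. Btg1 (-0.71 ± 0.04 log2 CD8+ minus CD4+, edgeR adjusted p = 1.35e-12), Btg2 (-0.70 ± 0.05), Klf3 (-0.55 ± 0.07) and Txnip (-0.36 ± 0.04) differed most, Klf6 was higher in CD8+ cells (0.15 ± 0.05), and Klf2 (0.03 ± 0.04) and Foxo1 (-0.02 ± 0.05) did not pass the test. Klf6 was not called without saline pool 1 (0.16) or 2 (0.12), nor Klf13 (-0.12 ± 0.04) without pool 2 (-0.11) or 3 (-0.11), nor Tsc22d3 (-0.24 ± 0.08) without pool 1 (-0.15) or 3 (-0.22). Without the clusters that carry cycling genes, which held 19.6% to 23.9% of CD4+ and 52.2% to 54.0% of CD8+ cells in the saline pools, 5 members differed, namely Klf2, Klf3, Klf6, Btg1 and Btg2.

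The change from saline to 50 mg/kg differed between the lineages for 8 members, where 19.8% of all genes differed. DESeq2 called 4 of them (Btg1, Btg2, Foxp1 and Txnip). On 1 scale for both lineages, Btg1 went from 286.4, 264.1 and 273.8 CPM in saline to 255.8, 274.0 and 274.7 CPM at 50 mg/kg in CD4+ cells, and from 163.1, 164.4 and 173.9 to 283.6, 308.7 and 268.7 CPM in CD8+ cells. Its change was greater by 0.81 ± 0.06 in CD8+ cells (edgeR adjusted p = 9.54e-10). Klf6 was the exception in direction, with a change smaller by 0.37 in CD8+ cells (-0.37 ± 0.07, edgeR adjusted p = 0.000393, DESeq2 adjusted p = 0.06). That of Foxo1 (0.22 ± 0.08) was not called without any of 6 of the 9 pools (0.16 to 0.24 without saline pool 1, 2 or 3, 5 mg/kg pool 1, or 50 mg/kg pool 1 or 3). Without the cycling clusters only Btg1 and Klf6 remained called, Btg1 at 0.45. The cycling clusters held 38.4% to 52.3% of CD8+ cells at 50 mg/kg, and their part in the other 6 differences was not tested beyond leaving them out. At 5 mg/kg the change differed between lineages for 0 members by edgeR (3.65% of all genes differed), 1 of them, Btg1, had an unadjusted p under 0.05, and DESeq2 called 0 of the 5 to which it gave an adjusted p.

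The level of the members was then described cluster by cluster, with the cluster numbers of the deposited annotation and names from marker genes. Levels here are CPM without TMM over the pools with at least 10 cells, and they carry no test, because these same counts defined the clusters. They are means over the pools of all 3 groups, and the order in saline alone is given after them. The CD4+ naive-like cluster 9, with Igfbp4 and Ccr7 among its leading genes, had the highest Btg1 (678 ± 114 CPM, SD, n = 9 pools), Foxo1 (166 ± 43.4), Txnip (462 ± 157) and Tsc22d3 (364 ± 83.8). The TFH-like cluster 4 (Cxcr5) had the highest Klf3 (258 ± 78.9 CPM), Klf13 (298 ± 74.9) and Foxp1 (268 ± 151). Klf2 was highest at 1068 ± 145 CPM in the unnamed cluster 1, whose leading genes are the immunoglobulin gene Iglv1 and then Ifitm1 and Ifitm2.

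At the other end stood CD4+ cluster 7, left unnamed and led by Ccl1, Ccl3, Csf2, Ccl4, Il2 and Ifng, which are cytokine and chemokine genes. It had the lowest Klf2 (233 ± 125 CPM), Klf3 (39.6 ± 12.6), Klf6 (53.9 ± 19.9), Klf13 (101 ± 27.8), Foxo1 (46.3 ± 11.4), Txnip (85.5 ± 13.2) and Tsc22d3 (28.8 ± 10.4). Btg1 (97.0 ± 13.6 CPM), Btg2 (101 ± 13.6) and Foxp1 (57.5 CPM) were lowest in the cycling-like cluster 3. The range from the lowest to the highest cluster was widest for Tsc22d3 (12.6-fold), Btg1 (7.00-fold) and Klf3 (6.52-fold). Neighbours in the order mostly differed by less than the larger SD, since only 4 of 12 gaps for Btg1, 2 of 12 for Klf2 and 0 of 12 for Foxo1 exceeded it.

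CD8+ cells had the same 2 low ends. The unnamed cluster 7 had Xcl1, Ccl1, Ccl4, Ccl3 and Ifng among its leading genes, besides the immunoglobulin genes Igkv1-117 and Ighv5-9-1. This cluster had the lowest Klf2 (389 ± 182 CPM, SD, n = 8 pools), Klf3 (30.6), Klf6, Klf13, Foxo1, Txnip and Tsc22d3 (28.5 ± 14.0). The cycling-like cluster 1 had the lowest Btg1 (103 ± 15.6), Btg2 and Foxp1. The effector-like cluster 8 (Ccl5, Klrg1) had the highest Btg1 (430 ± 74.6 CPM), Btg2, Klf3, Klf13 and Txnip (366 ± 73.3). Btg1 was nearly level with it in cluster 6 (427 ± 60.0 CPM). Of the 8 gaps between neighbours in the CD8+ order, 0 exceeded the larger SD for Klf2, Klf6, Btg2, Foxo1 and Foxp1. For the other members at most 3 of 8 did (Tsc22d3), with 2 of 8 for Btg1. The naive-like cluster 6 had the highest Foxo1, Foxp1 and Tsc22d3 (195 ± 64.9 CPM), and cluster 9 (Ifitm1, Ifitm2) the highest Klf2 (940 ± 101 CPM). Cluster 6 also has the immunoglobulin genes Ighv1-77 and Igkv6-15 among its leading genes. Immunoglobulin genes (Igkv1-110, Igkv8-27) lead the cycling-like CD8+ cluster 2, and complement genes (C1qb, C1qa) lead CD8+ cluster 5. Values of these clusters may include RNA of other cells, which was not tested.

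In the saline pools alone the order differed for some members. Among CD4+ clusters with 3 saline pools, cluster 9 was then the highest for Foxp1 (301 ± 54.2 against 180 ± 27.0 CPM in cluster 4) and Klf13 (352 ± 20.1, with 280 ± 10.9 in cluster 0 and 270.1 ± 18.8 CPM in cluster 4), as well as for Btg1, Foxo1, Txnip and Tsc22d3. Klf3 was highest in cluster 4 (210.5 ± 4.55 CPM), Btg2 in cluster 0 (364 ± 12.8 CPM) and Klf6 in cluster 0 (163 ± 5.27 CPM), while Klf6 was lowest in cluster 2 (56.4 ± 5.48 CPM), which did not differ from cluster 7 (57.9 ± 22.4 CPM) beyond the spread. The next highest cluster lay within the larger SD for Klf3 (207 ± 63.1 CPM in cluster 10) and Klf6 (142 ± 23.8 CPM in cluster 5). The same held for Txnip (569 ± 219 CPM in cluster 9, 529 ± 82.2 CPM in cluster 0). Klf2 in cluster 7 was at 153 ± 16.1 CPM in saline, so its mean over all groups mixes levels that differ with dose. In CD8+ cells, saline Btg1 was highest in cluster 6 (421 ± 36.1 CPM), Foxo1 and Foxp1 in cluster 4 (128 ± 14.3 and 165 ± 8.12 CPM) and Klf6 in cluster 8 (167 ± 10.3 CPM), and Btg2 was lowest in cluster 3 (98.5 ± 6.93 CPM). The next cluster lay within the larger SD for Btg1 (416 ± 32.6 CPM in cluster 4), Foxo1 (119 ± 52.3 CPM in cluster 6) and Btg2 (103 ± 7.99 CPM in cluster 1).

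**Figure D3:**
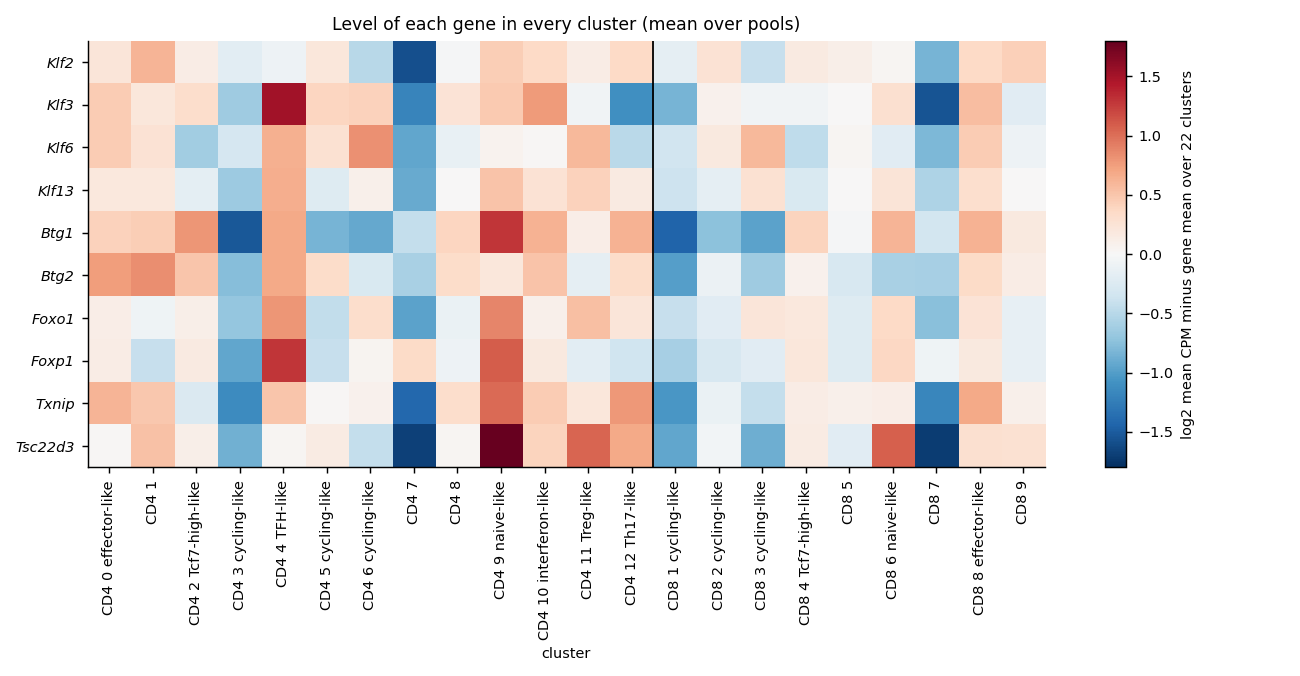
Mean CPM of each member (rows) in each CD4+ and CD8+ cluster (columns), as log2 minus the member's mean over the 22 clusters (red above, blue below). Cluster 7 is low in both lineages for most members (Klf2 at 233 and 389 CPM), the cycling-like clusters are low for Btg1 (97.0 CPM in CD4+ cluster 3), and the CD4+ naive-like cluster 9 is high for Btg1 (678 CPM) and Tsc22d3 (364 CPM).

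Over the 22 cluster means the members were not 1 pattern. These correlations describe clusters that share pools and captures, and carry no p. Foxo1 and Klf13 were the most alike pair (Pearson r = 0.911 over log2 CPM), followed by Txnip with Klf13 (0.848) and Txnip with Tsc22d3 (0.845), whereas Klf2 and Foxp1 were unrelated (-0.040) and so were Klf6 and Btg1 (-0.003). Of the 6100 genes compared, the 2 outside the list most like each member were Maf1 and Tmem71 for Klf2 (0.834 and 0.827), Trp53inp1 and Mylip for Klf3 (0.883 and 0.878), B4galt1 and Il17ra for Klf6 (0.903 and 0.885), and Bcl9l and Zfp36l2 for Klf13 (0.892 and 0.872). They were Pdcd4 and Ltb for Btg1 (0.918 and 0.909), Gimap1 and Rinl for Btg2 (0.878 and 0.868), Nlk and Arhgap15 for Foxo1 (0.880 and 0.879) and Zfp950 and Ppp1r15a for Foxp1 (0.881 and 0.870). For Txnip they were Tmem59 and Tecpr1 (0.902 and 0.898) and for Tsc22d3 Pik3ip1 and Npc2 (0.882 and 0.869).

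Cluster shares shifted with dose. The TFH-like cluster 4 went from 18.1% of CD4+ cells in saline to 1.47% at 50 mg/kg, and cluster 1, the highest in Klf2, from 9.01% to 25.6%. The members were therefore tested again inside each cluster, in 11 CD4+ and 8 CD8+ clusters with at least 2 pools of 10 cells in every group, which left out CD4+ clusters 11 and 12 and CD8+ cluster 3. Of the tested clusters, CD4+ cluster 6 had only 2 such pools at 50 mg/kg and CD8+ cluster 7 only 2 at 5 mg/kg. At 50 mg/kg, 34 of 110 member-by-cluster tests were higher in CD4+ cells (30.9%, against 14.8% of all gene-by-cluster tests) and 8 lower (7.27%, against 15.4%). In CD8+ cells 33 of 79 were higher (41.8%, against 21.3%) and 0 lower, where 22.1% of all tests were lower. Of these 75 calls, 45 were kept under library size alone, 24 lost and 6 reversed, and DESeq2 kept 56. At 5 mg/kg, 4 of 110 were higher (3.64%, against 7.49%) and 9 lower (8.18%, against 5.53%) in CD4+ cells, and 8 of 79 higher (10.1%, against 12.4%) and 11 lower (13.9%, against 10.8%) in CD8+ cells.

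Klf2 was the member most often called inside clusters. At 50 mg/kg it was higher in 10 of 11 CD4+ and in 8 of 8 CD8+ clusters, from 0.41 ± 0.07 in CD8+ cluster 9 to 1.66 ± 0.17 in CD4+ cluster 7, where its mean went from 139 ± 14.0 to 439 ± 84.4 CPM (SD, n = 3 pools, edgeR adjusted p = 3.9e-08). In the CD4+ Tcf7-high-like cluster 2 it went from 504 ± 52.3 to 1246 ± 129 CPM (1.29 ± 0.08). At 5 mg/kg it was higher in only 2 CD4+ and 3 CD8+ clusters, and lower in the TFH-like cluster 4 (-0.47 ± 0.15, edgeR adjusted p = 0.037), where it then rose at 50 mg/kg (0.64 ± 0.18). The smallest pool sum of cluster 4 over all groups had only 26099 UMIs, which limits all its values. Under library size alone the rise of Klf2 at 5 mg/kg turned to -0.04, -0.08 and -0.01 in CD4+ cluster 5 and CD8+ clusters 1 and 4.

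Tsc22d3 was higher at 50 mg/kg in 6 of 11 CD4+ and 5 of 7 CD8+ clusters and positive in all 18. The TFH-like cluster 4 had the largest change (2.04 ± 0.45, from 61.3 ± 6.98 to 254 ± 45.1 CPM, edgeR adjusted p = 0.0004). It rests on few cells, since this cluster held 1.47% of CD4+ cells at 50 mg/kg. The CD8+ effector-like cluster 8 went from 65.5 ± 7.16 to 167 ± 10.8 CPM. Btg1 kept its lineage split. In CD8+ cells it was higher in 6 of 8 clusters, most in cluster 8 (1.04 ± 0.07, from 306 ± 8.61 to 629 ± 17.9 CPM). In CD4+ cells it was higher in cluster 2 alone (0.53 ± 0.09, from 426 ± 21.4 to 623 ± 70.9 CPM) and lower in clusters 8 and 10 (-0.54 in each). Immunoglobulin genes (Igkv17-121, Ighv5-17) and complement genes (C1qb, C1qa, C1qc) lead CD4+ cluster 8, so its values, here and below, may include RNA of other cells. The smallest pool sum of cluster 10 had 37301 UMIs. Foxp1 was higher in 6 of 11 and 4 of 8 clusters.

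Txnip moved in both directions by cluster. At 5 mg/kg it was lower in 4 of 11 CD4+ and 5 of 8 CD8+ clusters, led in CD4+ cells by the effector-like cluster 0 (-0.80 ± 0.12, from 456 ± 72.0 to 264 ± 22.1 CPM, edgeR adjusted p = 3.9e-07). With the higher dose it was still lower in CD4+ clusters 0, 5 and 8 but higher in clusters 2, 6 and 7, for instance 0.71 ± 0.13 in cluster 2 (155 ± 35.2 to 263 ± 28.4 CPM). Cluster 6 had only 2 pools at 50 mg/kg. The change of Txnip summed over all CD4+ cells was 0.01. Klf13 was lower at 50 mg/kg in CD4+ clusters 0 (-0.30 ± 0.11) and 5 (-0.40 ± 0.12) and higher in none. The Tcf7-high-like CD4+ cluster 2 had the most calls of any CD4+ cluster, 8 of 10 members higher (all but Klf3 and Klf13), and CD8+ clusters 8 and 9 had 7 each.

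**Figure D4:**
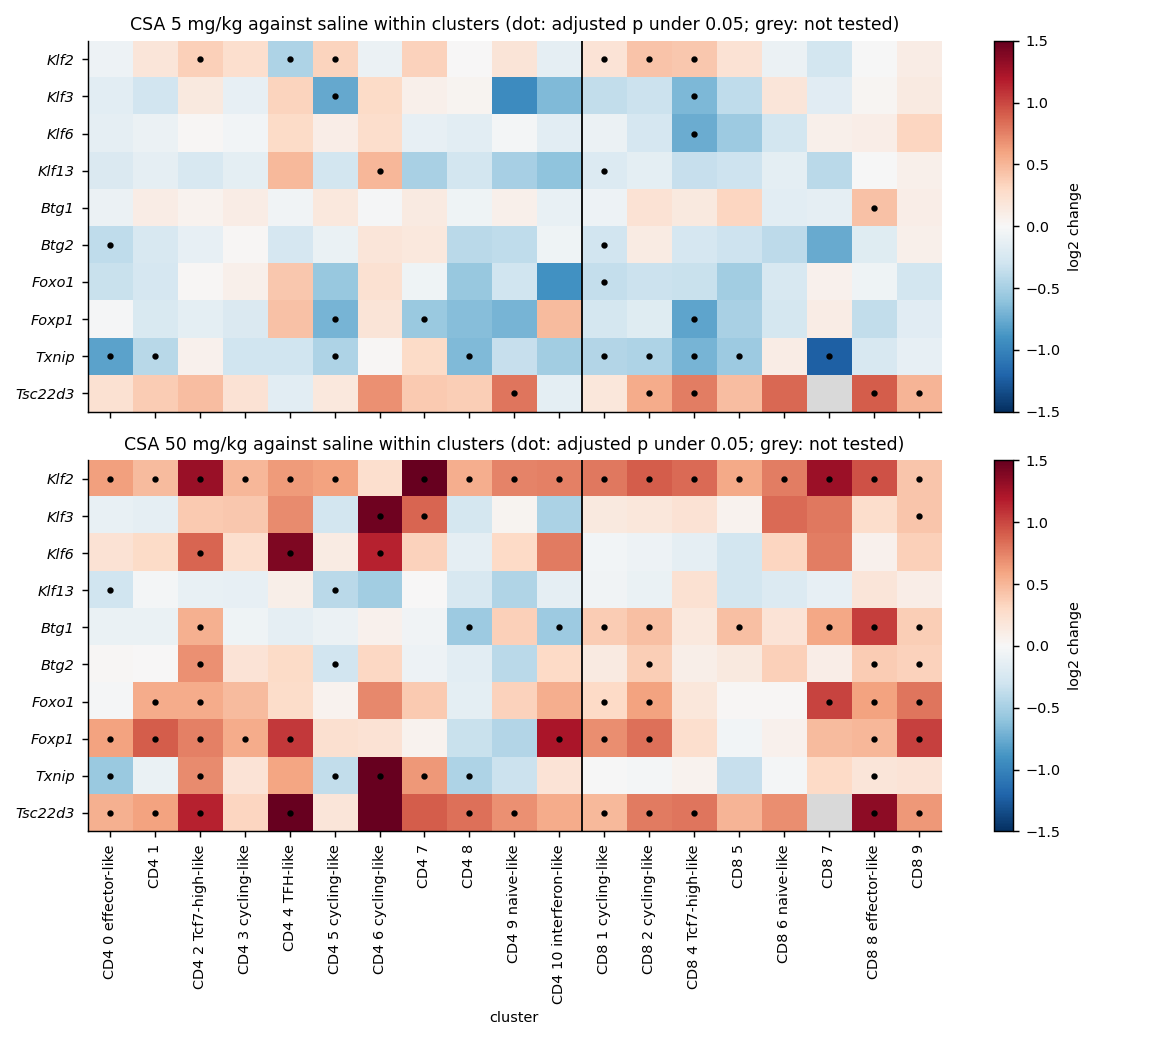
Log2 fold change of each member against saline inside each tested cluster at 5 and 50 mg/kg (TMM scale), as colour (red higher, blue lower), with a dot on called tests and grey where untested. At 50 mg/kg Klf2 is higher in 10 of 11 CD4+ and 8 of 8 CD8+ clusters and Btg1 in 6 of 8 CD8+ clusters, while at 5 mg/kg Txnip is lower in 4 and 5 clusters; under library size alone Klf2 at 5 mg/kg reverses in 3 of these clusters and Btg1 at 50 mg/kg in CD8+ cluster 2.

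Holding cluster shares at their saline mean gave a second view, without TMM and without a test. At 50 mg/kg it rests in part on few cells, because clusters that were large in saline had nearly gone. CD8+ cluster 3 went from 21.9% of cells in saline to 0.57%, and CD4+ clusters 4 and 6 from 18.1% and 10.9% to 1.47% and 1.11%. In CD4+ cells at 50 mg/kg the log2 change of Klf2 was 0.50 as measured and 0.42 at fixed shares, and that of Tsc22d3 was 0.56 and 0.78. Klf6 went from -0.04 to 0.44, Foxp1 from -0.10 to 0.39 and Txnip from -0.43 to -0.16. In CD8+ cells Klf2 was at 0.52 and 0.47, Tsc22d3 at 0.62 and 0.47, Btg1 at 0.28 and 0.21, and Klf6 at -0.48 and -0.27. At 5 mg/kg Klf2 was at 0.00 as measured and -0.16 at fixed shares in CD4+ cells and at 0.01 and -0.09 in CD8+ cells, and Tsc22d3 at 0.32 and 0.16 in CD4+ and 0.47 and 0.42 in CD8+ cells. On this scale the rise of Klf2 was thus present at 50 mg/kg and not at 5 mg/kg.

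Cells of expanded clonotypes, those whose TCR was read in at least 2 cells of the pool and lineage, were compared with cells of a TCR read once, with pool as a block. All members but Klf6, that is 9 of the 10, were lower in expanded cells in each lineage. Of all genes, 8.83% were lower and 9.97% higher in CD4+ cells, and 7.69% lower and 7.40% higher in CD8+ cells. This comparison is on the TMM scale and was not computed under library size alone or with DESeq2. The median expanded cell of a pool had 3502 to 7688 UMIs against 2960.5 to 6416.5 in single CD4+ cells, and 4568 to 8995 against 3787.5 to 7908.5 in CD8+ cells. Btg1 had the largest difference, at 308 ± 25.2 CPM in single and 197 ± 17.9 CPM in expanded CD4+ cells (SD, n = 9 pools), and at 236 ± 49.9 and 160 ± 45.1 CPM in CD8+ cells. It was lower among expanded cells in 9 of 9 pools in each lineage, with log2 differences of -0.64 ± 0.05 (edgeR adjusted p = 3.48e-10) and -0.58 ± 0.05 (edgeR adjusted p = 5.13e-08).

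Tsc22d3 (-0.52 ± 0.08 in CD4+ and -0.36 ± 0.05 in CD8+ cells), Txnip (-0.45 ± 0.06 and -0.41 ± 0.05) and Klf3 (-0.35 ± 0.07 and -0.46 ± 0.07) were also lower. Foxo1 was too, at -0.47 to -0.31 in CD4+ and -0.22 to -0.17 in CD8+ cells over 14 alternative fits. Klf2 differed least of those called, by -0.14 ± 0.04 and -0.10 ± 0.03, and Klf6 did not pass the test (-0.08 ± 0.06 and -0.11 ± 0.05, edgeR adjusted p = 0.433 and 0.159). In CD8+ cells Klf2 was not called without saline pool 1 (-0.090) or 3 (-0.086), nor Foxp1 (-0.17 ± 0.05) without saline pool 2 (-0.15) or 3 (-0.14). Expanded cells were more often in cycling clusters, with a mean over 9 pools of 42.6% (35.7% to 53.1%) against 24.1% (15.5% to 31.4%) in CD4+ and 61.7% (46.1% to 71.2%) against 45.6% (37.3% to 50.7%) in CD8+ cells. Without those clusters, Klf3, Btg1, Foxo1, Txnip and Tsc22d3 stayed lower in CD4+ cells and Klf3, Btg1, Txnip and Tsc22d3 in CD8+ cells. In the saline pools alone, 4 members were called in CD4+ and 8 in CD8+ cells.

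**Figure D5:**
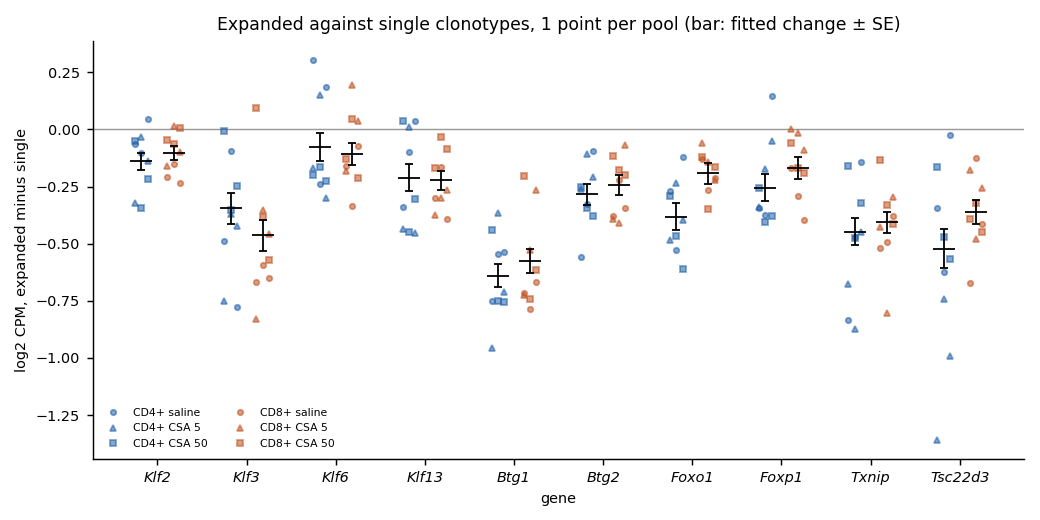
Log2 CPM (TMM scale) in expanded minus single clonotypes (y axis) for each member, with 1 point for each of the 9 pools in CD4+ (blue) and CD8+ (orange) cells, marked by group, and a bar for the fitted difference ± SE. All 18 Btg1 points lie below 0, around -0.64 in CD4+ and -0.58 in CD8+ cells, whereas the Klf6 points lie on both sides of 0.

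The TEa cells numbered 123, 130 and 27 in the 3 groups, summed over pools with no replicate, and their 95% Poisson intervals cover counting error only. Klf2 was at 666 CPM (598 to 739) in saline, 576 (524 to 633) at 5 mg/kg and 857 (742 to 986) at 50 mg/kg without TMM. Txnip was at 253 (212 to 299), 127 (103 to 155) and 131 (88.1 to 186) CPM, and Foxp1 at 104 (78.1 to 135), 43.1 (29.7 to 60.6) and 113 (73.9 to 166) CPM. Of these, the Klf2 interval at 50 mg/kg lay just above that in saline and the Txnip intervals at both doses and the Foxp1 interval at 5 mg/kg lay below those in saline. The intervals of Klf3 (126, 65.3 and 56.6 CPM), Klf13 (232, 150 and 82.7) and Btg2 (155, 98.0 and 60.9) also lay below saline at both doses. That of Btg2 at 5 mg/kg did so only just (77.1 to 122.8 against 123.0 to 192.0). Klf6, Btg1, Foxo1 and Tsc22d3 overlapped saline at both doses. All these TEa values are plain CPM, and TMM values of TEa cells are not given here. Under library size alone the median gene of the other CD4+ cells fell by 0.37 at 5 mg/kg and by 0.45 at 50 mg/kg (log2). TEa intervals below saline are to be read against that shift.

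The partners and relatives of the members gave a mixed picture. Of 85 listed genes, 72 were tested in CD4+ and 74 in CD8+ cells, and at 50 mg/kg 25 were higher and 32 lower in CD4+ and 24 higher and 31 lower in CD8+ cells under TMM. Over all genes 34.7% were higher and 35.8% lower in CD4+ and 37.1% and 36.9% in CD8+ cells, so the numbers of higher genes lay near the background, and all list counts at 50 mg/kg that follow are to be read against these shares. With the lower dose, where 26.1% and 29.9% of all genes were higher and 25.6% and 30.3% lower, 13 were higher and 27 lower in CD4+ and 17 higher and 34 lower in CD8+ cells. In the FOXO1 and KLF2 axis of 10 genes, 6 were higher in each lineage, while 3 were lower in CD4+ and 1 in CD8+ cells (median log2 change 0.42 and 0.59, against -0.01 and 0.00 over all genes). S1pr4, a sphingosine phosphate receptor, rose by 0.88 ± 0.06 and 0.80 ± 0.04 and Itgb7 by 0.71 ± 0.04 and 0.59 ± 0.04. S1pr1, the receptor that lets T cells leave lymph nodes, fell by 0.20 ± 0.06 in CD4+ cells and was at 0.02 ± 0.06 in CD8+ cells. Il7r fell by 1.04 ± 0.09 in CD4+ cells (296 ± 24.8 to 143 ± 26.9 CPM) and was at -0.14 ± 0.10 in CD8+ cells, and Ccr7 rose by 0.40 ± 0.15 and 0.65 ± 0.15.

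The other KLF genes had 1 of 7 higher and 3 lower in CD4+ and 2 of 8 higher and 5 lower in CD8+ cells at 50 mg/kg. Klf16 was higher in both (0.59 ± 0.12 and 0.31 ± 0.10), Klf7 in CD8+ cells (0.43 ± 0.11) and Klf10 lower in CD8+ cells (-0.36 ± 0.10). Of 14 BTG/TOB and CCR4-NOT genes, 8 were lower and 3 higher in CD4+ and 7 lower and 2 higher in CD8+ cells. Cnot1, the scaffold of the deadenylase that BTG proteins bind, fell by 1.28 ± 0.06 and 1.45 ± 0.06, and Cnot6l by 0.59 ± 0.07 and 0.40 ± 0.06. Pabpc1 fell by 0.10 ± 0.03 in CD4+ cells and was at -0.01 in CD8+ cells.

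Among 10 FOXO and FOXP relatives and their kinases, 4 were higher and 3 lower in CD4+ and 2 higher and 2 lower in CD8+ cells. Akt1, the kinase that inactivates FOXO1, rose by 0.70 ± 0.05 and 0.41 ± 0.05, and Ywhaz rose by 0.20 ± 0.03 in CD4+ cells only by call (-0.02 in CD8+ cells). Of 11 genes around TXNIP, 7 were higher and 3 lower in CD4+ and 6 higher and 3 lower in CD8+ cells. Txn1, the thioredoxin that TXNIP binds, rose by 0.68 ± 0.04 and 0.76 ± 0.04 and Txn2 by 0.63 ± 0.05 and 0.91 ± 0.04, while Ddit4 rose at 5 mg/kg (0.39 and 0.64) and fell by 0.15 and 0.30 at 50 mg/kg.

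In the TSC22 and glucocorticoid list, 1 of 8 genes was higher and 5 lower in CD4+ and 2 of 9 higher and 5 lower in CD8+ cells, and Tsc22d4 rose by 0.71 ± 0.05 and 0.59 ± 0.04. The glucocorticoid receptor Nr3c1 fell by 0.65 ± 0.07 and 0.44 ± 0.06 and its target Fkbp5 by 0.50 ± 0.07 and 0.66 ± 0.06. Of 12 other quiescence regulators, 3 were higher and 7 lower in CD4+ and 4 higher and 8 lower in CD8+ cells. Slfn2 rose by 0.52 ± 0.04 and 0.76 ± 0.04, Ets1 fell by 0.88 ± 0.04 and 0.99 ± 0.04, and Vsir fell by 0.19 ± 0.05 in CD4+ and rose by 0.12 ± 0.05 in CD8+ cells. All values for these lists are on the TMM scale, and they were not computed under library size alone.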

How the data were processed

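The authors made 10x Chromium 5′ v2 libraries and, per the labels, used Cell Ranger, Seurat 3.0.0 and mm10. They deposited raw UMI counts for 18029 genes in 21204 cells, already filtered, with tables giving each cell's treatment, hashtagged pool, cluster, clonotype and the fraction of mitochondrial UMIs that the authors computed. Doublet removal was as deposited, and no cell was dropped here except TEa cells. The number of unmapped columns of samples was 0.

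Counts were summed per pool and lineage (also per cluster with at least 10 cells, or per clonotype class) and tested with edgeR 4.0.16 in R 4.3.3 (filterByExpr, TMM, glmQLFit, glmQLFTest), all 3 groups in 1 fit, with Benjamini-Hochberg adjustment over all genes tested. SE is the log2 change divided by the root of F. Comparisons within pools had pool as a block. DESeq2 1.42.0, library size scaling, no filter, omitted pools, cells or clusters were alternatives. The fits were tested on simulated data. Members, lists and tests were chosen with earlier results of these data known. Named genes were the 10 members, the 3 most abundant genes of each list plus S1pr1, Ccr7 and Il7r, and the 2 genes most like each member. Some genes that this rule names are not reported here. Hashtag numbers 1 to 3 recur in each group, but same-numbered pools did not deviate together (0 of 9 correlations over 0.1 in CD4+ and 1 of 9 in CD8+ cells), so they were not treated as pairs. Depth and the 3 pools per group limit the precision.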

Additional observations from a re-analysis of the deposited data

Results flagged for a closer look

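For 8 members the change from saline to 50 mg/kg differed between CD8+ and CD4+ cells in the test of that difference (edgeR with pool as a block, log2 change in CD8+ minus CD4+ cells). The differences were 0.81 for Btg1, 0.41 for Klf3, 0.41 for Foxp1, 0.33 for Btg2, 0.27 for Txnip, 0.23 for Klf13, 0.22 for Foxo1 and -0.37 for Klf6. DESeq2 called 4 of them, Btg1, Btg2, Foxp1 and Txnip, and Foxo1 lost its call without any of 6 pools. Without the cycling clusters Btg1 and Klf6 were called. Groups of 3 pools were too small to look for a pool far from the others.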

How the results depend on the processing

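Library size in place of TMM had the largest effect. It reversed the sign of Btg1 in CD4+ cells at 5 mg/kg (-0.19), of Klf3 (-0.39), Klf6 (-0.039), Btg2 (-0.25), Foxo1 (-0.19), Foxp1 (-0.10) and Txnip (-0.43) in CD4+ cells at 50 mg/kg, of Btg1 (-0.091) and Btg2 (-0.39) in CD8+ cells at 5 mg/kg, and of Klf3 (-0.044), Klf6 (-0.48), Klf13 (-0.35), Foxo1 (-0.035) and Txnip (-0.22) in CD8+ cells at 50 mg/kg. Inside clusters it reversed Klf2 at 5 mg/kg in CD4+ cluster 5 (-0.038) and CD8+ clusters 1 (-0.084) and 4 (-0.013), and at 50 mg/kg Foxo1 in CD8+ cluster 1 (-0.068), Btg1 (-0.012) and Btg2 (-0.092) in cluster 2, and Btg2 (-0.18), Foxp1 (-0.067) and Txnip (-0.38) in cluster 8. Over all genes it changed the calls from 2758 higher and 2709 lower to 926 and 5718 in CD4+ cells at 5 mg/kg and from 3669 and 3785 to 1599 and 6239 at 50 mg/kg, and in CD8+ cells from 3241 and 3282 to 1180 and 6270 and from 4021 and 4003 to 1690 and 6794.

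Without cycling clusters the sign reversed for Btg1 in CD4+ cells at 50 mg/kg (0.16) and between doses (0.0023), for Foxp1 (0.057), Txnip (0.026) and Tsc22d3 (0.081) between lineages in saline, and for the lineage difference in the change of Txnip at 50 mg/kg (-0.0079). Counts of members then fell from 8 to 5 between lineages in saline, from 8 to 2 for the change at 50 mg/kg, from 9 to 5 for CD4+ clonotypes and from 9 to 4 for CD8+ clonotypes. DESeq2 gave 5 members for the lineages in saline, 4 for the change at 50 mg/kg and 21 in place of 32 calls inside clusters at 5 mg/kg, where library size gave 64 (2 higher, 62 lower). In CD4+ cells at 5 mg/kg DESeq2 gave 5 members (3 higher, 2 lower) in place of 7. At 50 mg/kg the 75 calls inside clusters became 68 under library size (37 higher, 31 lower) and 57 with DESeq2. Saline pools alone gave 4 members for CD4+ clonotypes. The cause was not tested.

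Leaving out 1 pool at a time (inside clusters an alternative chosen after seeing the data) gave 6 to 8 members in CD4+ and 5 to 7 in CD8+ cells at 5 mg/kg, 6 to 7 and 9 to 9 at 50 mg/kg, and 9 to 9 and 9 to 10 between doses. It gave 6 to 8 between lineages in saline, 0 to 0 and 7 to 8 for the change at 5 and 50 mg/kg, 9 to 9 and 7 to 9 for CD4+ and CD8+ clonotypes, and 21 to 33 (21 without 5 mg/kg pool 3) and 64 to 77 inside clusters. The hashtag number as a block changed no call of a member in 60 comparisons. Clonotypes with both chains only, also chosen after seeing the data, changed none of 20 calls. Fits without the pool as a block gave 6 members between lineages in saline, 6 for the change at 50 mg/kg and 9 in each lineage for clonotypes. Depth rose with dose, and at 3 pools from 1 capture per group the effect of the capture cannot be told apart from that of CSA.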
